A study of Mus musculus with 4 samples.

Results

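The respiratory chain genes described here encode subunits of complexes I to V of the inner mitochondrial membrane, and some factors that assemble them. They were taken by gene symbol alone: names starting with mt-Nd, mt-Co, mt-Atp or mt-Cytb for genes of mitochondrial DNA, and with Ndufa, Ndufb, Ndufc, Ndufs, Ndufv, Uqcr, Cox4 to Cox8 or Atp5, together with Sdha to Sdhd, for nuclear genes. This gave 106 of the 31055 genes in the files, 13 mt-encoded and 93 nuclear-encoded, of which 104 were detected in more than 3 cells. The mt-encoded genes belong to complex I (7), complex III (1), complex IV (3) and complex V (2). The nuclear-encoded genes were 36 for complex I, 4 for complex II, 8 for complex III, 20 for complex IV, 16 for complex V and 9 assembly factors. Cox8c had 0 UMIs in all libraries, and Atp5o is listed under 2 gene identifiers, of which 1 had 0 UMIs.

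The series profiled single cells dissociated from the hippocampus of 3-month-old male mice with the 10x 3′ method, 1 library per mouse. There were 2 Dp(10)2Yey mice, hemizygous for a duplication of the chromosome 10 segment from Prmt2 to Pdxk, and 2 WT littermates, all on a C57BL/6J background. Preparation took place on 2 consecutive days, each with 1 mouse of each genotype, and the labels do not say which replicate numbers shared a day. A UMI is 1 counted transcript molecule, and 3′ UMIs count molecules without regard to transcript length, so levels of different genes are compared without scaling by length. Throughout, values for the libraries are listed in the order WT replicate 1, WT replicate 2, Dp(10)2Yey replicate 1 and Dp(10)2Yey replicate 2. The libraries held 1039, 1708, 1372 and 2345 barcodes, with median UMIs per barcode of 2049, 3669.5, 3386.5 and 3696, so WT replicate 1 was the shallowest. Between 0 and 3 barcode sequences were shared by any pair of libraries.

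Complexes I to IV carry electrons from NADH and succinate to oxygen. Complexes I, III and IV also pump protons, and complex V makes ATP as the protons flow back. Mitochondrial DNA is transcribed inside the organelle as long precursors that are then divided into messenger RNAs, whereas the nuclear-encoded subunits are transcribed in the nucleus, translated in the cytosol and imported. Every complex except complex II needs subunits from both genomes.

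Cells with at least 200 detected genes were clustered without the 106 genes, red blood cells were removed, and the 6248 remaining cells formed 15 clusters that were named by marker genes. The names were rebuilt from these data and carry the ending -like, so a difference from the study may come from the names. Classes with at least 10 cells in every library were compared. These 10 classes were microglia-like (2585 cells), oligodendrocyte-like (970), astrocyte-like (915), neuron-like (397), oligodendrocyte precursor-like (383), endothelial-like (281), immature neuron-like (185), ependymal-like (128), choroid plexus-like (125) and border macrophage-like (108). Stress and immune genes stood among the leading genes of some clusters: Ccl4, Atf3 and Il1a for the microglia-like and S100a8 and S100a9 for the border macrophage-like cells. Hemoglobin genes were among those of the endothelial-like class, dividing-cell genes Top2a and Ube2c among those of the immature neuron-like class, and Acta2 among those of the ependymal-like class. The neuron-like class expressed all 33 neuron markers, with summed levels of 25455, 28303, 18108 and 30270 counts per 1000000 UMIs of nuclear genes (CPM below), and Nrgn was the most abundant of them. When the respiratory genes were allowed into the clustering, 98.3% of cells kept their class.

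The mt-encoded share is the percentage of all UMIs that came from the 13 mt-encoded genes. Over all cells it was 6.25, 6.80, 7.08 and 4.11%. Dp(10)2Yey replicate 2 was the lowest and the groups overlapped. With all cells kept, the share was highest in neuron-like cells, at 22.6, 15.05, 25.8 and 10.4%, followed by astrocyte-like cells at 14.4, 13.02, 13.2 and 8.41% and ependymal-like cells at 9.08, 10.7, 11.3 and 6.71%. By the mean it was lowest in microglia-like cells, at 3.29, 3.66, 3.30 and 2.27%, although choroid plexus-like cells were slightly lower in Dp(10)2Yey replicate 2 (2.25%). The WT and Dp(10)2Yey values overlapped in each of these 4 classes. The means of the other classes lay between 4.36% in oligodendrocyte precursor-like and 6.51% in oligodendrocyte-like cells, with 4.50% in immature neuron-like, 5.02% in choroid plexus-like, 5.06% in border macrophage-like and 6.05% in endothelial-like cells. The ranges over the 4 libraries did not overlap for 21 of the 45 pairs of classes. Neuron-like and astrocyte-like cells were each apart from 7 classes and microglia-like cells from 6. Dp(10)2Yey replicate 2 had the lowest share in 10 of 10 classes, and without this library 37 of the 45 pairs were apart. A range over fewer libraries cannot be wider, so by construction this count could not fall.

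**Figure D1:**
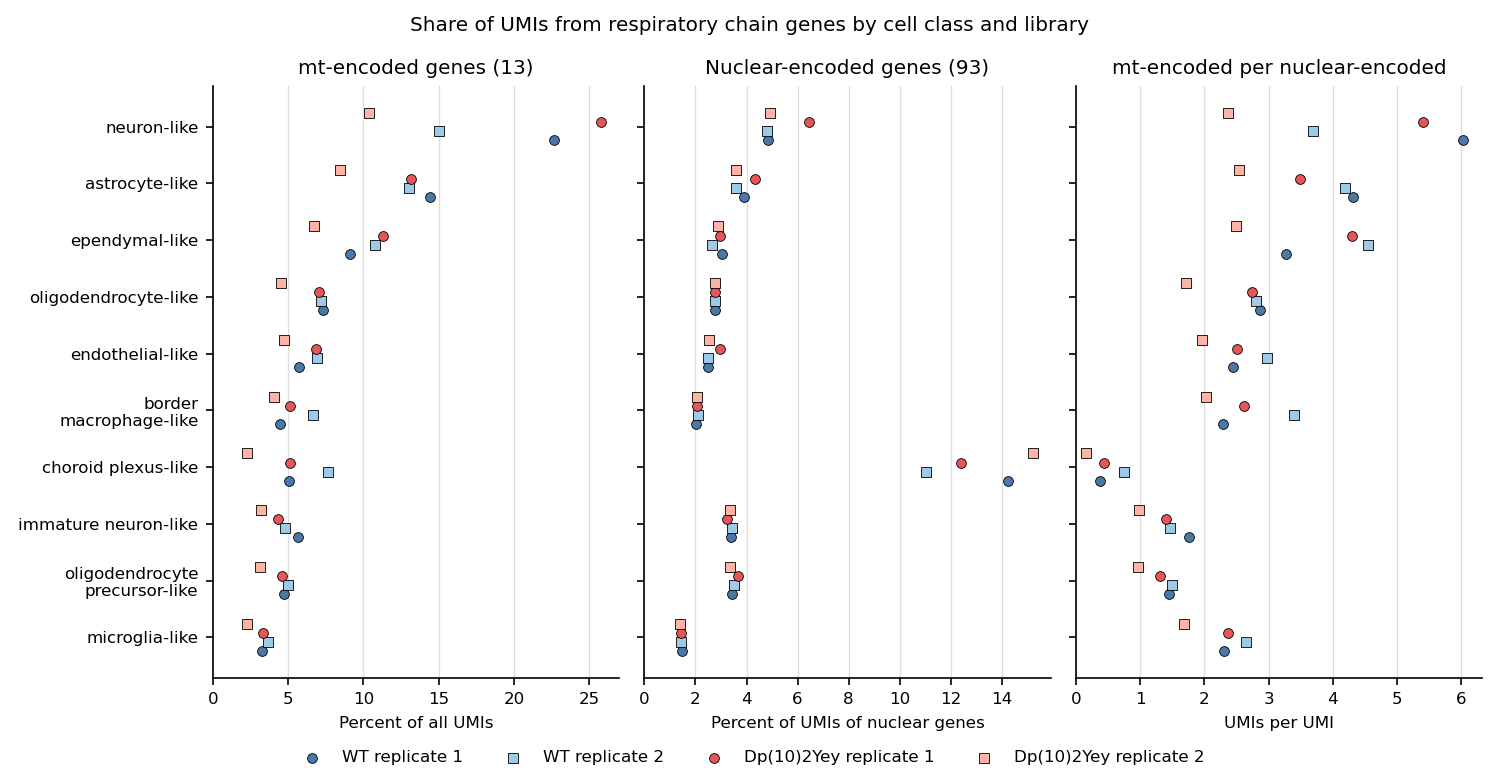
Mt-encoded share of all UMIs, nuclear-encoded share of UMIs of nuclear genes, and mt-encoded UMIs per nuclear-encoded UMI in each class. Each point is 1 library.

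In oligodendrocyte-like cells the mt-encoded share was 7.34 and 7.15% in WT against 7.05 and 4.49% in Dp(10)2Yey. It was 4.72 and 5.01% against 4.56 and 3.14% in oligodendrocyte precursor-like cells, and 5.66 and 4.75% against 4.35 and 3.22% in immature neuron-like cells. In these 3 classes both Dp(10)2Yey libraries lay below both WT libraries, where the exact permutation test of 2 against 2 libraries gave its smallest possible two-sided p of 0.333. In the other 7 classes the groups overlapped. With the 10 classes weighted equally the share was 8.24, 8.06, 8.66 and 4.96% (exact permutation p of 1), so the low value of Dp(10)2Yey replicate 2 was also present when class proportions were held equal.

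Part of the neuron-like value came from cells in which more than 20% of UMIs were mt-encoded. These were 33 of 44, 68 of 129, 110 of 135 and 40 of 89 neuron-like cells. Their part was larger in both replicates 1 than in both replicates 2, and the genotypes overlapped. Without these cells the neuron-like share was 6.82, 6.73, 5.58 and 4.27%, and astrocyte-like cells without theirs were at 10.97, 11.2, 10.97 and 7.84%. The order of these classes thus turned in every library. Both values are low in part by construction, as cells are removed by the share itself. In the high-mt cells the nuclear transcript Malat1 was at 14874, 2608, 1803.5 and 843 CPM, against 37393, 50570.5, 12617 and 48844 CPM in the remaining neuron-like cells. Cytosolic ribosomal protein genes summed to 213176, 251860, 300764 and 249971 CPM against 89230, 97550.1, 152040 and 87676 CPM. Thus in every library the high-mt cells had less nuclear-retained RNA and more ribosomal protein RNA per nuclear UMI, and their part in the class difference was not tested.

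Among nuclear-encoded members, 21 of 78 (26.9%) had more CPM in the high-mt than in the remaining neuron-like cells in all 4 libraries, against 13.1% of the 3393 nuclear genes compared. Another 18 of 78 (23.1%) had less in all 4, against 41.3%. The median log2 ratio was −0.08 for members and −0.64 for all genes. Complex IV genes led: the mean log2 ratio was 1.97 for Cox6a1, 1.78 for Cox8a, 1.53 for Cox4i1 and 1.08 for Cox7c, with the complex I gene Ndufb9 at 1.64. Complex IV made up 49.2, 50.9, 54.4 and 46.8% of the nuclear-encoded member UMIs in the high-mt cells and 32.3, 33.3, 41.6 and 32.4% in the remaining ones, without overlap. In astrocyte-like cells the same comparison gave 11 of 78 members higher in all 4 libraries (14.1%, against 9.37% of 3329 genes), again with Ndufb9 (0.94), Cox6a1 (0.91) and Cox8a (0.84) among the leading ones.

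The mt-encoded share also followed depth. Over the 6248 cells, which share 4 libraries and their classes, the Spearman correlation of the mt-encoded share with UMIs per cell was −0.34. Microglia-like cells came as a deep cluster of 1998 cells (median 4101 UMIs) and a shallow cluster of 587 cells (median 802 UMIs). The mt-encoded share was 8.25, 9.96, 7.81 and 4.79% in the shallow cluster against 2.75, 3.25, 2.94 and 2.14% in the deep one. The nuclear-encoded share was 2.47, 2.43, 2.44 and 2.58% against 1.37, 1.37, 1.37 and 1.32%. Both shares were higher in the shallow cluster in every library, and what part depth plays in the differences between classes was not tested.

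The nuclear-encoded share is given as a percentage of the UMIs of nuclear genes, so that it does not fall when mt-encoded UMIs increase. Over all cells it was 2.57, 2.63, 2.80 and 2.65%. The 2 Dp(10)2Yey values exceeded those of WT, with a difference of means of 0.126 percentage points (exact permutation p of 0.333). Choroid plexus-like cells were highest at 14.2, 11.02, 12.4 and 15.2%, and neuron-like cells followed at 4.85, 4.798, 6.44 and 4.90%. Microglia-like cells were lowest at 1.48, 1.43, 1.44 and 1.38%, below border macrophage-like cells at 2.03, 2.10, 2.05 and 2.07%. With all cells kept, each of these 4 classes was apart from all 9 others. Without the cells over 20% mt-encoded UMIs, the neuron-like share was 4.25, 4.41, 5.28 and 4.34%. The astrocyte-like share was then 3.95, 3.56, 4.28 and 3.55%, so these classes overlapped. With all cells kept, the means of the remaining classes were 3.86% in astrocyte-like, 3.48% in oligodendrocyte precursor-like, 3.35% in immature neuron-like, 2.89% in ependymal-like, 2.76% in oligodendrocyte-like and 2.61% in endothelial-like cells. In all, 40 of the 45 pairs of classes did not overlap, against 21 for the mt-encoded share. The nuclear-encoded share varied least between libraries in the oligodendrocyte-like class, at 2.77, 2.75, 2.76 and 2.75%. There the mt-encoded share ranged from 4.49 to 7.34%. In astrocyte-like cells the nuclear-encoded share varied more, from 3.58 to 4.34%.

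Mt-encoded UMIs per nuclear-encoded UMI were 2.59, 2.77, 2.72 and 1.62 over all cells. The ratio was highest in neuron-like cells at 6.03, 3.69, 5.40 and 2.36, with ependymal-like (mean 3.65) and astrocyte-like cells (mean 3.64) next. It was below 2 in every library in immature neuron-like (1.77, 1.46, 1.41 and 0.987) and oligodendrocyte precursor-like cells (1.45, 1.4996, 1.31 and 0.970). Choroid plexus-like cells had by far the lowest ratio, at 0.374, 0.754, 0.434 and 0.151, apart from all 9 other classes. The ratio was lowest in Dp(10)2Yey replicate 2 in 10 of 10 classes, and 21 of 45 pairs of classes were apart. The Dp(10)2Yey values were below the WT values without overlap in astrocyte-like (4.32, 4.19, 3.50 and 2.55), oligodendrocyte-like (2.86, 2.80, 2.75 and 1.71), oligodendrocyte precursor-like and immature neuron-like cells (exact permutation p of 0.333 each), and the groups overlapped in the other 6 classes. Over the 10 classes, which are measured in the same 4 libraries, the Spearman correlation between the mt-encoded and the nuclear-encoded share was 0.50, 0.59, 0.44 and 0.15. Over the 9 classes without the choroid plexus-like one it was 0.73, 0.58, 0.58 and 0.58.

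Choroid plexus-like cells thus had the highest nuclear-encoded share beside a mt-encoded share of 5.05, 7.67, 5.12 and 2.25%. The 13 choroid plexus markers summed to 107623, 170917, 176575 and 95373 CPM in this class, most from Ttr, and none was at 0. Of the 28 ependymal markers, 8 were at 0 there (Iqca, Tmem212, Sntn, Fam216b, Ccdc153, Nme9, Cdhr4 and Fam183b), and the sum was 2594, 2229, 1915 and 2053 CPM, with Rsph1 the most abundant. Malat1 had 0, 150, 3 and 10 UMIs among 33543, 62814, 35509 and 157319 nuclear UMIs, that is 0 (upper limit at 3 counts, 89.4), 2388, 84.5 and 63.6 CPM. In the other 9 classes Malat1 lay between 6742 and 63329 CPM. The choroid plexus-like values were thus below those of all other classes, in WT replicate 2 by much less than in the other 3 libraries. The part of this nuclear-retained transcript in the high nuclear-encoded share was not tested. Among the 83 cells of this class with at least 1000 UMIs, from 4 mice, the Spearman correlation between the mt-encoded and nuclear-encoded shares was −0.82, and within libraries −0.73 (12 cells), −0.79 (19), −0.93 (13) and −0.78 (39).

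The class pattern was broad rather than carried by a few genes. Of 81 nuclear-encoded members with a mean over the classes of at least 50 CPM, 72 were highest in choroid plexus-like cells, 4 in neuron-like, 3 in oligodendrocyte precursor-like and 1 each in astrocyte-like and border macrophage-like cells. The 72 are 88.9%, against 13.6% of the 3623 nuclear genes chosen by the same level. Microglia-like cells were lowest for 61 (75.3%, against 16.2%) and border macrophage-like cells for 15 (18.5%, against 17.6%). The ratio of the highest to the lowest class, with 1 CPM added to both, had a median of 8.25 over these members, against 9.20 over those nuclear genes, and was under 3 for 5 members (6.17%, against 10.6%). A gene can reach this level through its highest class alone, as Cox8b and Cox6b2 do. With the level taken over the 9 classes other than the highest, chosen after the values were seen, 70 of 78 members (89.7%, against 16.3% of 2735 genes) were highest in choroid plexus-like and 60 (76.9%, against 17.1%) lowest in microglia-like cells. The median ratio was then 8.22 against 6.64, so whether members differed more between classes than other genes depended on the filter.

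**Figure D2:**
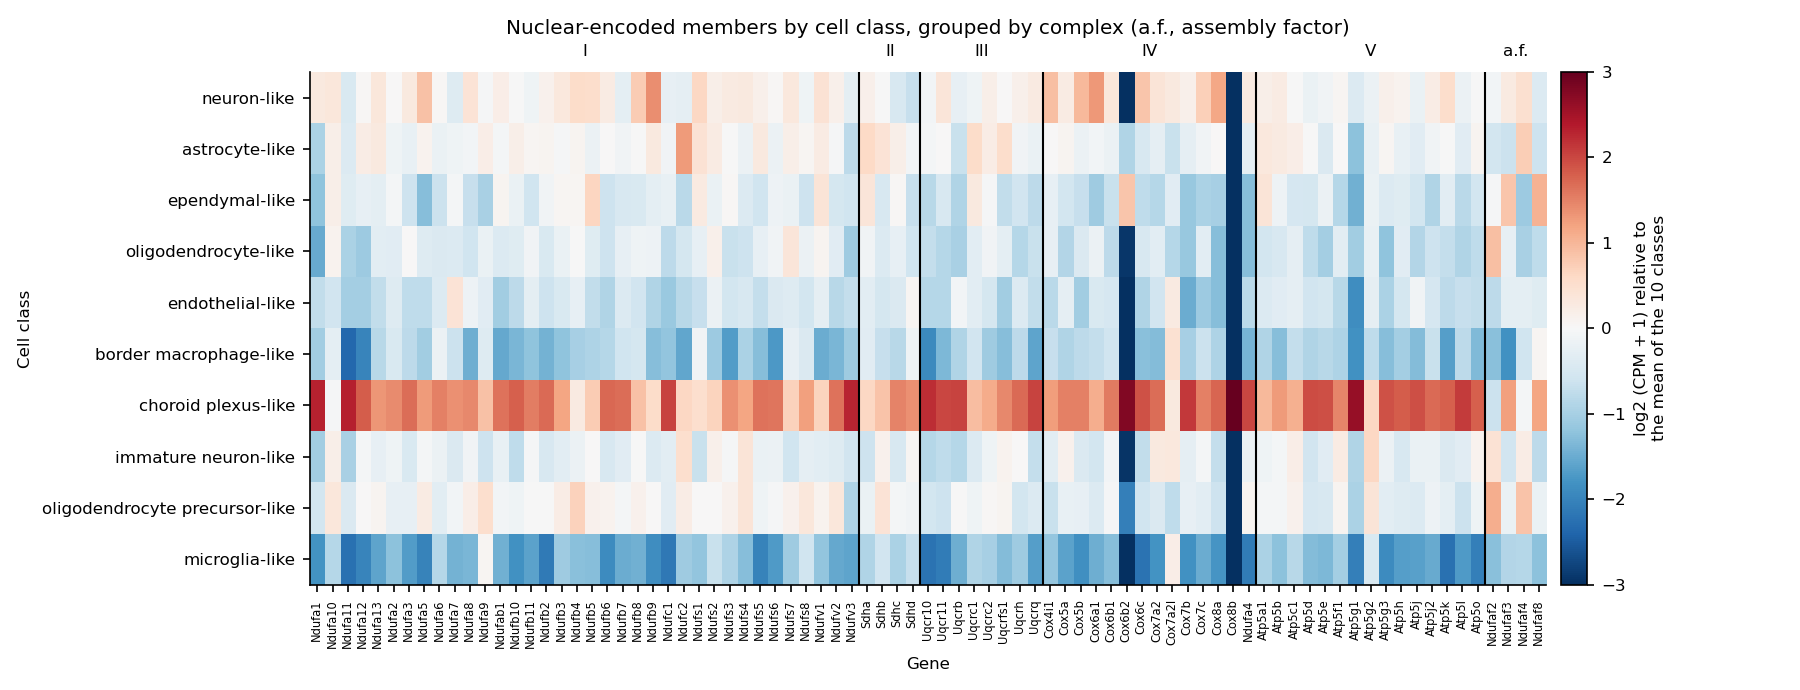
Nuclear-encoded members by class, as log2 of CPM plus 1 relative to the mean of the 10 classes, with colours limited at −3 and 3. Members are grouped by complex, with assembly factors (a.f.) last.

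Complex I, which oxidizes NADH, held 33.3, 33.5, 32.4 and 33.4% of the nuclear-encoded member UMIs over all cells. Its part was largest in oligodendrocyte precursor-like cells (mean 36.2%) and smallest in choroid plexus-like (27.6%) and neuron-like cells (29.0%). Its nuclear-encoded genes with most UMIs were the accessory subunits Ndufa13, Ndufb9 and Ndufa2, with 11086, 10292 and 9596 UMIs. Ndufa13 was highest in choroid plexus-like cells at 1766 CPM (1608 to 1938 over the libraries) and lowest in microglia-like cells at 236 CPM. Ndufa2 gave 1667 CPM (1353 to 1997) and 264 CPM in the same classes. Ndufb9 instead peaked in neuron-like cells at 1606 CPM (1315 to 2403), above 898 CPM in choroid plexus-like and 168 CPM in microglia-like cells. The membrane arm subunit Ndufa11 had 1 of the largest class ratios, 26.0, from 2510 CPM in choroid plexus-like and 383 CPM in ependymal-like to 95.7 CPM in border macrophage-like cells. Ndufa10 had the smallest, 2.31, from 151 CPM in neuron-like to 64.7 CPM in microglia-like cells.

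Complex II, succinate dehydrogenase, is wholly nuclear-encoded and was the least abundant, at 1.51, 1.51, 1.51 and 1.61% of the nuclear-encoded member UMIs. Its part was largest in microglia-like cells (mean 2.05%), where most members had their lowest CPM, and smallest in choroid plexus-like (0.797%) and neuron-like cells (0.877%). Sdhb, Sdha and Sdhc had most UMIs (3286, 2551 and 1988). The catalytic subunits Sdha and Sdhb had class ratios of 2.87 and 2.93, below the median of all members. Sdha was at 213 CPM in choroid plexus-like, 210.4 CPM in astrocyte-like and 73.7 CPM in microglia-like cells. Sdhb ran from 296 CPM (127 to 534) in choroid plexus-like to 101 CPM in border macrophage-like cells, and the membrane anchor Sdhc from 342 CPM (223 to 417) to 61.9 CPM in microglia-like cells.

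Complex III, which passes electrons from ubiquinol to cytochrome c, held 10.1, 9.72, 9.77 and 9.79% of the nuclear-encoded member UMIs. It reached 12.8, 12.2, 12.6 and 11.8% in choroid plexus-like cells, above the means of 8.88 to 10.8% in the other classes. Uqcr11, Uqcrh and Uqcr10 had most UMIs (12327, 12161 and 9244). Uqcr10 ranged from 3602 CPM (2770.1 to 4293) in choroid plexus-like and 747 CPM in astrocyte-like to 164 CPM in microglia-like cells. Uqcr11 ranged from 4008 CPM (3311 to 4621) in choroid plexus-like and 1281 CPM in neuron-like to 234 CPM in microglia-like cells. Uqcrh was at 2721, 923 and 401 CPM in the same 3 classes.

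Complex IV, cytochrome c oxidase, held 30.3, 30.1, 32.4 and 29.4% of the nuclear-encoded member UMIs. In neuron-like cells it held 39.5, 38.0, 49.6 and 36.5%, more than in any library of the other classes, and Dp(10)2Yey replicate 1 was the highest there. Without the cells over 20% mt-encoded UMIs, the 32.3, 33.3, 41.6 and 32.4% given above were no longer above every other class, as border macrophage-like cells reached 35.5%. Ependymal-like cells had the lowest mean, 26.2%. Cox8a (29594 UMIs), Cox6c (23896) and Cox4i1 (23687) were the most abundant nuclear-encoded members of all. Cox8a was at 7747 CPM (6400 to 9153) in choroid plexus-like, 5142 CPM in neuron-like and 676 CPM in microglia-like cells. Cox6c was at 7003, 3273 and 400.0 CPM in these classes, and Cox4i1 at 3554, 2789 and 667 CPM.

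Complex V, the ATP synthase, held 23.5, 23.9, 22.7 and 24.4% of the nuclear-encoded member UMIs. Its part was largest in choroid plexus-like cells (mean 26.6%) and smallest in neuron-like cells (19.9, 20.8, 15.5 and 21.4%). With all cells kept, complexes I, II and V thus held a smaller part in neuron-like cells where complex IV held a larger one. Without the cells over 20% mt-encoded UMIs, complex V held 23.5, 23.0, 18.8 and 23.2% in neuron-like cells. Complex I then held 31.7, 31.9, 28.8 and 33.1%. Atp5e, Atp5l and Atp5h had most UMIs (15810, 13865 and 13200). Choroid plexus-like cells were highest and microglia-like cells lowest for all 3: 4446 against 459 CPM for Atp5e, 4745 against 340.1 CPM for Atp5l, and 3206 against 289 CPM for Atp5h.

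The 9 assembly factors (Ndufaf genes and Atp5s) summed to 335, 344, 339 and 364 CPM over all cells. Their class means were 812 CPM in choroid plexus-like, 617 CPM in ependymal-like and 588 CPM in oligodendrocyte precursor-like cells, down to 223 CPM in microglia-like cells. By these means, ependymal-like and oligodendrocyte precursor-like cells ranked next to the choroid plexus-like ones for assembly factors, whereas neuron-like cells did for subunits. Ndufaf8 alone gave 296 of the 617 CPM in ependymal-like cells.

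Within the mt-encoded UMIs, complex I genes made up 22.05, 24.2, 22.8 and 26.1%, mt-Cytb of complex III 10.8, 10.9, 10.1 and 10.99%, complex IV genes 47.5, 44.1, 48.3 and 43.6%, and complex V genes 19.7, 20.7, 18.8 and 19.3%. Only the complex V part was without overlap, lower in Dp(10)2Yey (exact permutation p of 0.333). The complex I part was highest in choroid plexus-like (mean 29.5%) and microglia-like cells (27.3%) and lowest in ependymal-like cells (20.3%). The most abundant genes over all cells were mt-Atp6 (19.3, 19.7, 18.3 and 18.1%), mt-Co3 (21.0, 16.5, 20.9 and 14.4%), mt-Co1 (13.03, 13.2, 14.1 and 15.8%) and mt-Co2 (13.4, 14.5, 13.4 and 13.4%). The genes with the smallest part of the UMIs were mt-Nd6 (0.169, 0.174, 0.156 and 0.212%), mt-Atp8 (0.369, 0.948, 0.404 and 1.24%), mt-Nd5 (1.13, 1.39, 1.11 and 1.69%) and mt-Nd4l (0.908, 1.65, 0.942 and 3.13%). Of these, both replicates 1 lay below both replicates 2, and WT and Dp(10)2Yey overlapped. The others were mt-Nd1 (5.65, 5.27, 5.97 and 4.596%), mt-Nd2 (5.69, 6.39, 5.67 and 5.34%), mt-Nd3 (2.74, 3.01, 3.27 and 2.04%) and mt-Nd4 (5.75, 6.36, 5.65 and 9.07%).

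Among mt-encoded genes, mt-Co3, mt-Nd4, mt-Nd4l and mt-Atp8 differed between libraries more than between classes, and mt-Nd3 slightly more. In 10 of 10 classes mt-Co3 was higher in both replicates 1 than in both replicates 2, and mt-Nd1 was in 8. The reverse order was found for mt-Atp8, mt-Nd4l and mt-Nd4 in 10 classes and for mt-Nd5 in 9. The median standard deviation over the libraries of a class was 3.34 for mt-Co3, against a standard deviation of 1.06 between class means, and 1.02 against 0.241 for mt-Nd4l and 0.477 against 0.0674 for mt-Atp8. Dp(10)2Yey replicate 2 had the highest part of mt-Nd4l and mt-Nd4 in 10 classes and of mt-Co1 and mt-Atp8 in 9, and the lowest of mt-Co3 and mt-Nd3 in 10 and of mt-Nd1 in 9. By genotype, mt-Co1 was higher in both Dp(10)2Yey than in both WT libraries in 5 classes, and mt-Nd2 and mt-Atp6 were lower in 5 each.

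For other mt-encoded genes the class differences were the larger ones. Mt-Nd1 made up 3.004, 2.56, 3.40 and 2.82% of mt-encoded UMIs in ependymal-like cells but 7.15, 6.49, 7.66 and 5.54% in microglia-like cells, without overlap. Mt-Co1 made up 17.4, 16.9, 17.3 and 20.4% in ependymal-like cells, the highest mean of any class (17.99%), with oligodendrocyte-like cells next (16.3%). Mt-Co2 was lowest in ependymal-like cells (mean 10.8%).

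**Figure D3:**
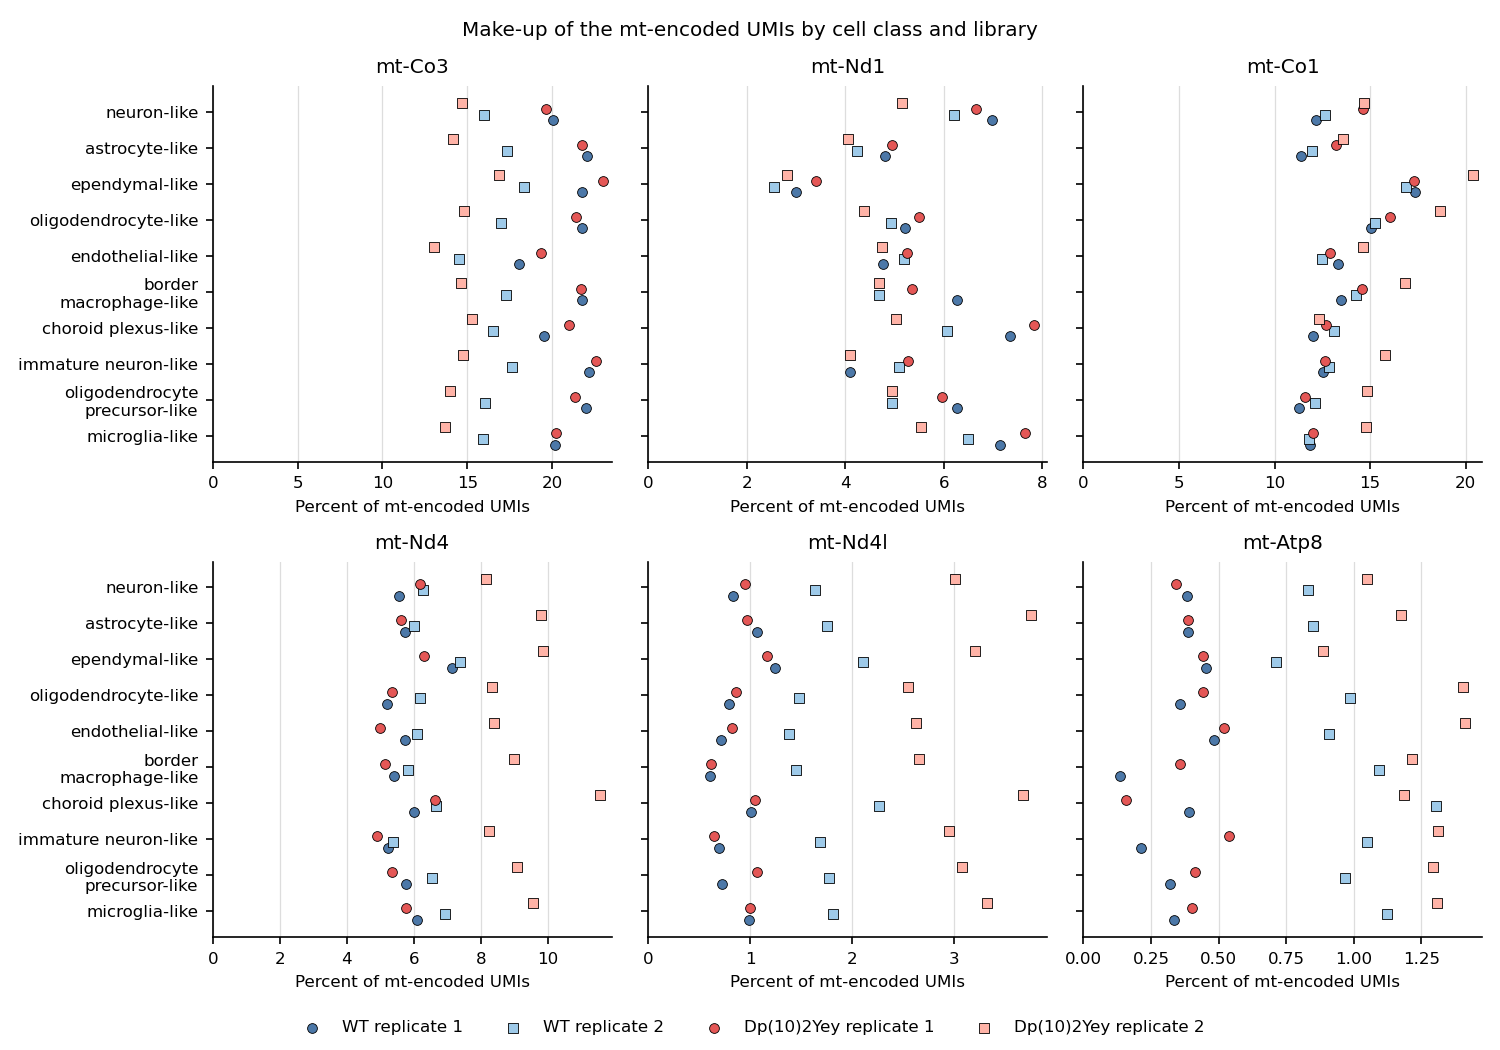
Parts of the mt-encoded UMIs taken by mt-Co3, mt-Nd1, mt-Co1, mt-Nd4, mt-Nd4l and mt-Atp8, by class and library.

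Several nuclear-encoded subunits exist as isoforms from separate genes, and their proportions within each group differed between classes. Cox8b, the partner of Cox8a, made up 8.57, 19.8, 8.58 and 14.8% of Cox8 UMIs in choroid plexus-like cells, which held 399 of its 421 UMIs. It was at 1153 CPM there and at 8.81 CPM in astrocyte-like cells, the next class. Its class ratio, 1154, was the largest of all members but is set by the added 1 CPM, as its lowest class had 0 UMIs, and only choroid plexus-like cells lift it over the mean of 50 CPM. Cox6b2, the partner of Cox6b1, made up 19.5, 21.3, 22.5 and 17.2% in choroid plexus-like and 29.8, 20.3, 23.9 and 17.9% in ependymal-like cells, against means of at most 6.02% elsewhere. It was at 614 CPM in choroid plexus-like, 159.6 CPM in ependymal-like and 47.3 CPM in astrocyte-like cells, and at most 20.9 CPM elsewhere. Its class ratio of 201 likewise rests on a level reached through its highest class. Cox7a1 was likewise found in choroid plexus-like (mean 8.31% of its group) and ependymal-like cells (9.13%). Among the 3 genes for subunit c of the ATP synthase, Atp5g1 held 72.8, 59.4, 67.4 and 64.7% in choroid plexus-like cells, against means of 23.7 to 38.1% in the other classes. Atp5g2 held a mean of 12.5% there and 58.5% in microglia-like cells. Atp5g3 ranged from 15.2% in microglia-like to 33.9% in astrocyte-like cells. In CPM Atp5g2 varied little, with a class ratio of 2.62.

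Cox7a2l made up 62.0, 61.5, 57.4 and 57.3% of its group in microglia-like and 71.4, 55.6, 55.6 and 40% in border macrophage-like cells, but 10.0, 17.1, 10.3 and 10.1% in choroid plexus-like cells. Its own CPM varied little, with a class ratio of 2.497, from 431 CPM in border macrophage-like to 172 CPM in oligodendrocyte-like cells. Ndufa4l2 was nearly confined to endothelial-like cells, with 197 of 200 UMIs, and Cox4i2 had 81 of 106 UMIs there and 18 in astrocyte-like cells. Cox4i2 made up 8.11, 4.12, 14.7 and 8.36% of the Cox4i group there, and Ndufa4l2 made up 16.9, 10.99, 39.65 and 22.1% of its group with Ndufa4. For each gene the Dp(10)2Yey parts were above the WT parts without overlap, but in CPM the groups overlapped for Cox4i2 (74.1, 33.3, 174 and 71.4). The 13 pericyte and smooth muscle markers in this class summed to 3406, 3299, 7220.2 and 5441 CPM, also higher in both Dp(10)2Yey libraries, with Vtn the most abundant and none at 0. The 20 endothelial markers summed to 36211, 37232, 35302 and 34249 CPM, with Cldn5 the most abundant. Whether the makeup of the class accounts for the isoform values was not tested. Cox6a2 had 81 UMIs, 36 of them in microglia-like and 30 in neuron-like cells, and Cox7b2 had 24.

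**Figure D4:**
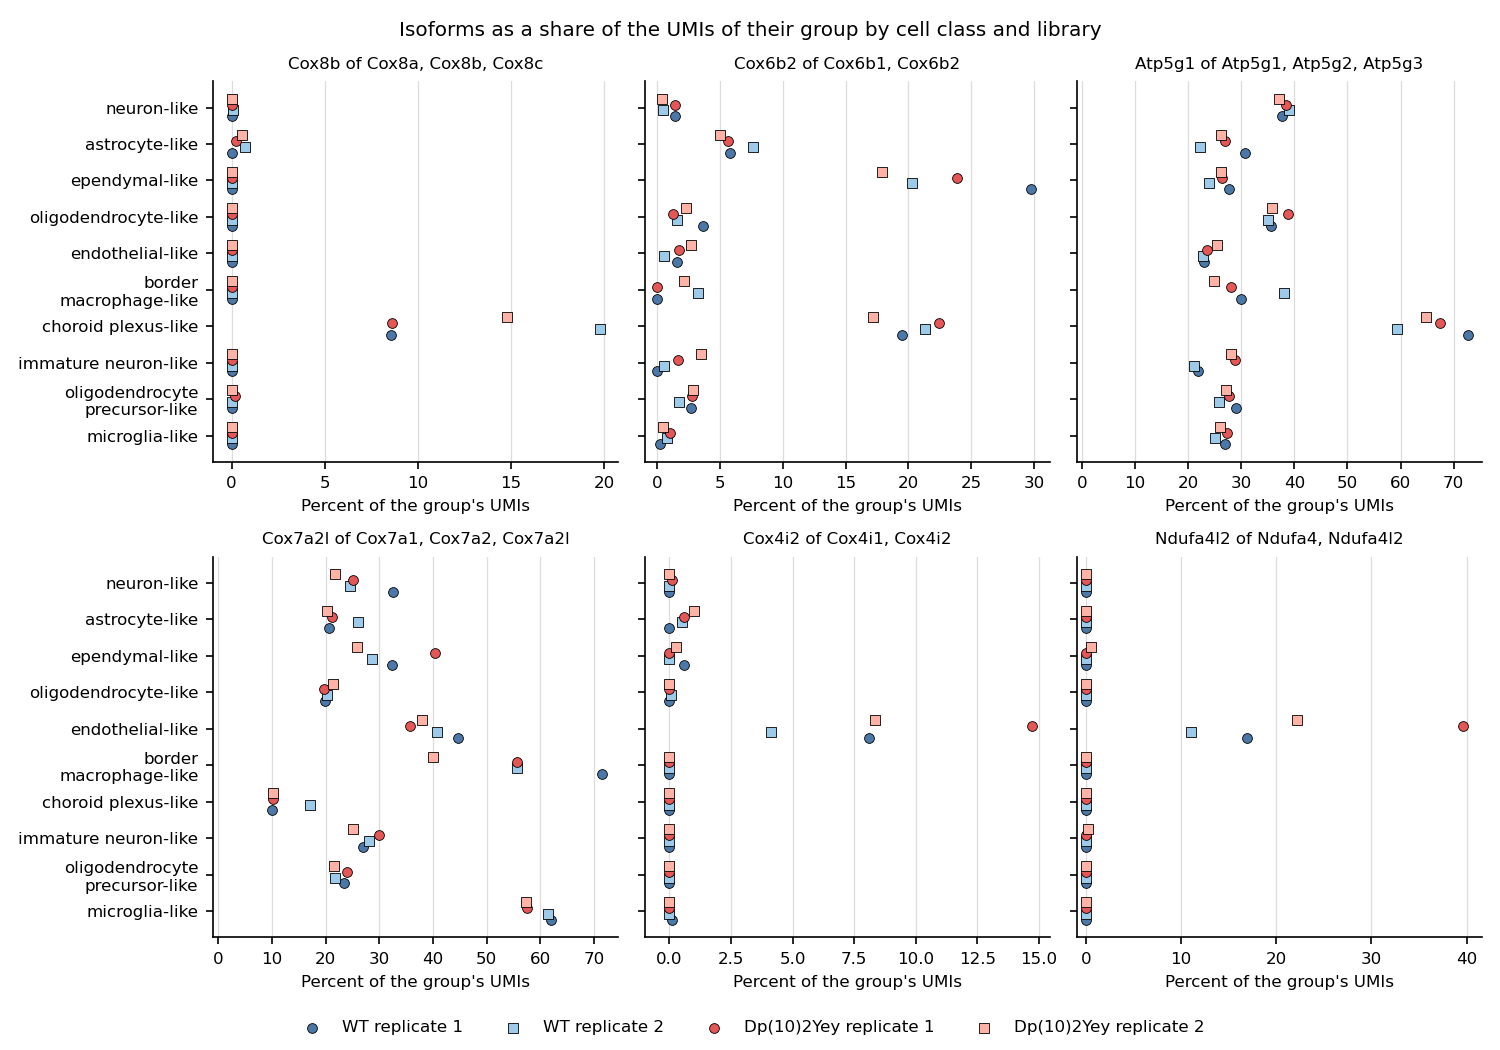
Parts of the UMIs of an isoform group taken by Cox8b, Cox6b2, Atp5g1, Cox7a2l, Cox4i2 and Ndufa4l2, by class and library.

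Promoter sequences of Cox8a and Cox8b and of Atp5g1 and Atp5g2 are shown because Cox8b and Atp5g1 held a larger part of their groups in choroid plexus-like than in other cells. They are from build GRCm38 (mm10), all on the minus strand: chr19:7217567-7217866 for Cox8a, chr7:140900397-140900696 for Cox8b, chr11:96075582-96075881 for Atp5g1 and chr15:102670998-102671297 for Atp5g2. Capitals mark matches to the motif cores of factors that bind promoters of respiratory genes: CGCATGCG for NRF1, which reads the same on both strands, CCGGAAGT or ACTTCCGG for GABP, and AAGATGGC or GCCATCTT for YY1. Cox8a has 2 GABP matches, Atp5g2 has 1 NRF1 match, and Cox8b and Atp5g1 have none of the 3.
Cox8a: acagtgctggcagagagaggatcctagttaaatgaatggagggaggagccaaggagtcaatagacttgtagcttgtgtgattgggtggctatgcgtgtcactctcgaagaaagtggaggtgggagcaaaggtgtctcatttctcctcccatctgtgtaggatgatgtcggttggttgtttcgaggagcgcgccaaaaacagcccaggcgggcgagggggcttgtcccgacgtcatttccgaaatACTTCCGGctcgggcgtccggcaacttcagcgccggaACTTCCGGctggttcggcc
Cox8b: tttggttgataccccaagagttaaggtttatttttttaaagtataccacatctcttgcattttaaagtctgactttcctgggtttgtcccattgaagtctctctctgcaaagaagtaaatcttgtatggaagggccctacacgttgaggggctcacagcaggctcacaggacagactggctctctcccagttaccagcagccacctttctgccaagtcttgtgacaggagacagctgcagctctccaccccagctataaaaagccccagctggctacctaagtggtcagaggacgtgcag
Atp5g1: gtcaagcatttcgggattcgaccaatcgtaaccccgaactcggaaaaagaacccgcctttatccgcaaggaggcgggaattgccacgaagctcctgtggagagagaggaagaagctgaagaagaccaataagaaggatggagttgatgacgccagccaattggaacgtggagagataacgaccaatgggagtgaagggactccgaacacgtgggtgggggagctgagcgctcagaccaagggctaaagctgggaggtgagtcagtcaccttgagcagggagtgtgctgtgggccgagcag
Atp5g2: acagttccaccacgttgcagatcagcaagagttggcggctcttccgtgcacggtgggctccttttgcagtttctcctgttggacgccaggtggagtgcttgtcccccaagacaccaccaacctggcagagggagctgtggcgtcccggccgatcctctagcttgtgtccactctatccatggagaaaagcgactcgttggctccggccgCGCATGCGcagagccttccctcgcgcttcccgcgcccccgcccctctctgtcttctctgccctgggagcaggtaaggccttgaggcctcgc

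Both strands were searched, and a match is a description of sequence, not of binding. Of the 93 nuclear-encoded members, 76 had a promoter in the reference table, with 81 promoters among them. The NRF1 core was found in 13.6% of these promoters against 1.87% of all 32851 promoters, the GABP core in 6.17% against 3.89%, and the YY1 core in 13.6% against 2.75%. Counted by gene, these were 11, 5 and 11 of the 76. The median GC content was 58.3% against 52.7%. Cox4i2 and Ndufa4l2 had no entry.

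Genotype differences of single genes were tested on UMIs summed per library, with edgeR quasi-likelihood and a threshold of adjusted p under 0.01. Over all cells 0 of the 103 members tested (13 mt-encoded, 90 nuclear-encoded) passed, where 0% of all 13807 genes passed. By unadjusted p under 0.05 the count was 0 with edgeR, against 2.74% of all genes tested, and DESeq2 called 0 at the same threshold and 0 by unadjusted p. Within the classes 0 of 895 member tests passed with edgeR and 0 with DESeq2. The share of all genes tested that passed was 0.0452% in astrocyte-like, 1.11% in border macrophage-like and 0.0137% in oligodendrocyte precursor-like cells and 0% in the other 7 classes. By unadjusted edgeR p under 0.05, members numbered 9 of 95 (9.47%, against 4.12% of all genes tested) in oligodendrocyte precursor-like, 5 of 87 (5.75%, against 3.51%) in choroid plexus-like and 5 of 96 (5.21%, against 3.05%) in microglia-like cells. In the other 7 classes they numbered from 1 of 93 (1.08%, against 3.54%) in neuron-like to 5 of 95 (5.26%, against 4.44%) in endothelial-like cells. Leaving out a library leaves 1 genotype with 1 sample, and then the counts moved: without Dp(10)2Yey replicate 1, 32 class tests of members passed (3.48%, against 0.337% of the tests of all genes), all for lower mt-encoded genes, 10 of them in choroid plexus-like cells. Without Dp(10)2Yey replicate 2, 11 passed (1.23%, against 0.527%), among them Cox6a1 (log2 fold change 1.63), Cox4i1 (1.54) and Cox8a (1.46), higher in neuron-like cells, where 7.53% of members and 2.87% of all genes passed. Without WT replicate 1, 5 passed (0.542%, against 0.162%), all for lower mt-encoded genes in choroid plexus-like cells.

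Over all cells 34 of the 90 nuclear-encoded members had both Dp(10)2Yey libraries above both WT libraries, against 13.4% of all genes tested, and 4 had both below, against 13.2%. For the 13 mt-encoded genes both counts were 0. Within classes the nuclear-encoded counts above were 13 of 83 in microglia-like cells (17.8% of all genes) and 11 of 85 in oligodendrocyte-like cells (15.1%). They were 12 of 82 in oligodendrocyte precursor-like (16.0%), 11 of 75 in choroid plexus-like (21.7%) and 8 of 45 in border macrophage-like cells (14.9%). Astrocyte-like cells had 23 of 81 (18.7%), endothelial-like cells 22 of 82 (16.3%) and neuron-like cells 17 of 80 (9.78%). Immature neuron-like cells had 19 of 77 (14.8%) and ependymal-like cells 15 of 77 (17.7%). The all-cell median log2 fold change of Dp(10)2Yey over WT was −0.20 for mt-encoded and 0.08 for nuclear-encoded members, against 0.01 for all genes. The mt-encoded median rested on Dp(10)2Yey replicate 2: it was 0.05 without this library and −0.67 without Dp(10)2Yey replicate 1, whereas the nuclear-encoded median was 0.07 both times. The mt-encoded median was below 0 in 9 classes, from −0.12 in endothelial-like to −0.95 in choroid plexus-like cells, and 0.21 in neuron-like cells. Without Dp(10)2Yey replicate 2 it was above 0 in endothelial-like (0.09), ependymal-like (0.16) and neuron-like cells (0.90), and without Dp(10)2Yey replicate 1 it was −0.91 in neuron-like cells. The nuclear-encoded median lay between −0.05 in microglia-like and 0.24 in neuron-like cells. Both Dp(10)2Yey libraries were below both WT libraries for 8 of 13 mt-encoded genes in immature neuron-like cells, against 15.5% of all genes tested there. This held for 6 of 13 each in astrocyte-like (13.8% of all genes) and oligodendrocyte precursor-like cells (15.3%). It held for 4 of 13 in oligodendrocyte-like (14.3%), 3 of 13 in microglia-like (12.2%) and 3 of 12 in choroid plexus-like cells (8.57%). The count was 1 of 13 in ependymal-like (12.1%) and 1 of 12 in border macrophage-like cells (14.3%). It was 0 of 13 in endothelial-like (16.9%) and in neuron-like cells (15.2%). The mt-encoded genes share their libraries and transcripts, so these are not separate observations.

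**Figure D5:**
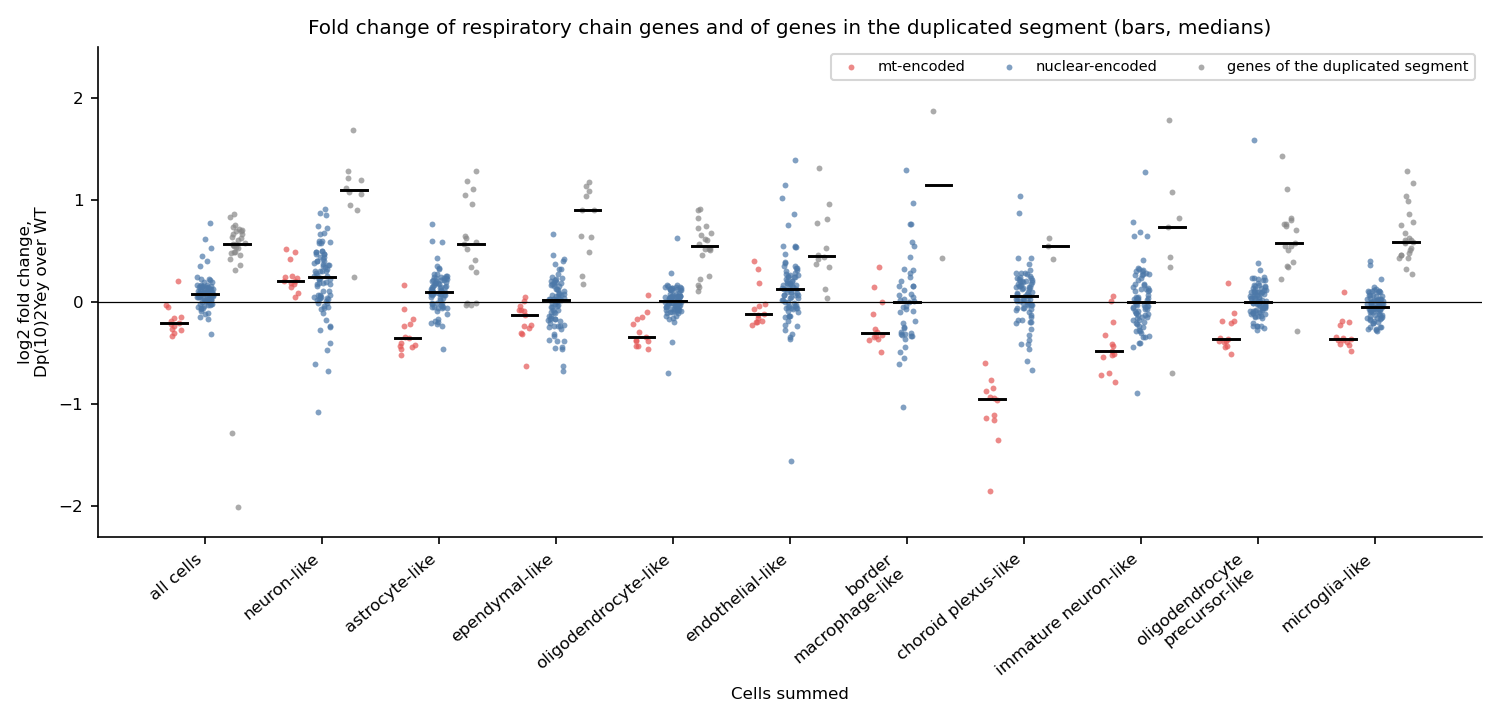
Log2 fold changes of Dp(10)2Yey over WT for mt-encoded members, nuclear-encoded members and genes of the duplicated segment, over all cells and by class. Each point is 1 gene and bars are medians.

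The members with the highest and lowest log2 fold change of each class are named here, many of them with standard errors (SE). CPM in this paragraph and the next are taken over the UMIs of all genes. In endothelial-like cells Ndufa4l2 had 126, 84.5, 375 and 191 CPM (1.39, SE 0.32, edgeR adjusted p of 0.433) and Ndufs1 had 37.2, 64.8, 22.4 and 15.7 CPM (−1.56, SE 0.53). In both cases the groups did not overlap. The pericyte and smooth muscle markers of this class, given above, were also higher in both Dp(10)2Yey libraries. Whether the makeup of the class accounts for the Ndufa4l2 values was not tested. Ndufa4l2 passed the threshold with a replicate block (edgeR adjusted p of 0.000486) and without the filter on low counts (edgeR adjusted p of 0.00110). The share of all genes passing in these analyses is not given. Without Dp(10)2Yey replicate 2 the log2 fold change of Ndufa4l2 was 1.86. Over all cells Ndufa4l2 was also the highest, at 9.13, 4.45, 13.4 and 8.55 CPM, with overlap. In immature neuron-like cells Uqcrc1 had 54.7, 70.6, 156 and 158 CPM (1.28, SE 0.35, edgeR adjusted p of 0.516) and Ndufaf7 was lowest (−0.89). In border macrophage-like cells Ndufc1 had 90.4, 163, 417 and 281 CPM (1.30, SE 0.55) and Atp5f1 had 241, 342, 156 and 141 CPM (−1.03). For Uqcrc1, Ndufc1 and Atp5f1 the groups did not overlap either.

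Mt-Nd2 had the lowest log2 fold change over all cells (−0.33) and in 3 classes: astrocyte-like (9583, 9591, 8331 and 5209 CPM, −0.52), microglia-like (2159.8, 2800.0, 2162 and 1461 CPM, −0.48) and oligodendrocyte precursor-like cells (3099, 3711, 3049.9 and 1783 CPM, −0.51). Dp(10)2Yey replicate 2 was the lowest each time, and the groups overlapped in microglia-like cells and over all cells. In choroid plexus-like cells mt-Atp8 had 198, 999.5, 80.2 and 267 CPM (−1.85, SE 0.66), with overlap, and Sdhb had 283, 118, 214 and 522 CPM (1.04), also with overlap. In neuron-like cells Cox6a1 had 961, 851, 1956 and 767 CPM (0.91, SE 0.60), high only in Dp(10)2Yey replicate 1, and Ndufaf4 had 69.5, 89.9, 31.2 and 39.9 CPM (−1.08). The other extremes were Ndufaf7 in astrocyte-like (0.76, SE 0.54) and Atp5s in microglia-like cells (0.40, SE 0.38). In ependymal-like cells they were Ndufa6 (0.67, SE 0.27) and Cox7a1 (−0.67, SE 0.48). In oligodendrocyte-like cells they were Ndufaf6 (0.63, SE 0.83) and Ndufaf1 (−0.69, SE 0.41). In oligodendrocyte precursor-like cells Ndufaf6 was highest (1.59, SE 0.67).

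No nuclear-encoded member lies inside the duplicated segment, chr10:76207226-78464948, which spans 69 genes of the files. The nearest are Atp5d at 1.67 Mb, Ndufs7 at 1.78 Mb and Uqcr11 at 1.94 Mb from it, with all-cell log2 fold changes of 0.15, 0.13 and 0.09. Ndufa12 (0.05), Ndufa4l2 (0.77) and Atp5b (0.00) lie 15.7, 49.0 and 49.6 Mb away on the same chromosome. Of the segment genes themselves 27 of 29 tested over all cells had positive log2 fold changes (93.1%, against 51.2% of all genes), with a median of 0.57. Of these 29, 0 passed the threshold with edgeR quasi-likelihood and 0 with DESeq2, and 21 had an unadjusted edgeR p under 0.05. In microglia-like cells 23 of 23 were positive (median 0.59). Over all cells the 3 members nearest the segment thus had values below the median of the genes inside it. In endothelial-like cells Ndufs7 (0.75) was above the segment median of that class (0.46).

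Genes of neighbouring pathways were followed as fixed lists. In choroid plexus-like cells mitochondrial ribosomal proteins (78 genes) summed to a mean of 12235 CPM, against 3488 to 8031 in the other 9 classes. Electron carriers and assembly factors outside the name rule (59 genes) summed to 9399.5 CPM against 2142 to 4749. The glycolysis list (17 genes) includes Aldoc, which is also an astrocyte marker used in naming the classes. Glycolysis genes were at 10492 CPM in choroid plexus-like and at 10335 CPM in astrocyte-like cells, against at most 5967 elsewhere. Genes of the tricarboxylic acid cycle and pyruvate dehydrogenase (18) were at 2469.5 and 2114 CPM in these classes. Genes that express mitochondrial DNA (27) were highest in oligodendrocyte precursor-like cells at 1055 CPM, with 897 CPM in choroid plexus-like cells, where nuclear regulators of respiratory genes (12) had their lowest mean, 142 CPM. In that class 0 of the 12 regulators had enough UMIs to be tested. Cytosolic ribosomal proteins (83) were at 134552 CPM there.

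By genotype, the all-cell median log2 fold changes of these lists were 0.04 for mitochondrial ribosomal proteins (77 genes tested), 0.02 for the further carriers and assembly factors (58), 0.19 for glycolysis (17), 0.04 for the tricarboxylic acid cycle (18), 0.03 for expression of mitochondrial DNA (27), −0.02 for the regulators (11), and −0.02 for cytosolic ribosomal proteins (80). The glycolysis list includes Pfkl, a gene of the duplicated segment (0.54 over all cells and 1.21 in neuron-like cells). In neuron-like cells glycolysis had a median of 0.48 and cytosolic ribosomal proteins of 0.58, beside the 0.24 of nuclear-encoded members. Cytosolic ribosomal proteins there summed to 232841 CPM in Dp(10)2Yey replicate 1 against 118324 to 131629 CPM in the other libraries, and Malat1 was at 6742 CPM against 29690, 40754 and 39780 CPM. By ribosomal protein genes and Malat1, Dp(10)2Yey replicate 1 was therefore the library that differed in this class. Dp(10)2Yey replicate 2 instead had the lowest mt-encoded share there (10.4%). It also had the lowest level of Gm42418, which overlaps ribosomal RNA sequence, at 7463 CPM against 30872, 22089 and 21043 CPM.

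Among all genes of these lists, including a list of RNA quality and dissociation genes (14 genes, all-cell median −0.02), only Lars2 and Gm42418, both from the RNA quality list, passed the threshold in any class. Lars2, which encodes a leucyl-tRNA synthetase and was placed in that list, was lower in Dp(10)2Yey astrocyte-like cells, at 1849, 2434, 916 and 895 CPM (log2 fold change −1.23, edgeR adjusted p of 0.00159). Gm42418, which overlaps ribosomal RNA sequence, was lower in Dp(10)2Yey oligodendrocyte precursor-like cells, at 13438, 21312, 10191 and 7736 CPM (−0.95, edgeR adjusted p of 0.00507). Over all cells Gm42418 was at 17290.4, 20787, 12318 and 8131 CPM, Lars2 at 680.2, 1045, 495 and 382 CPM, and AY036118 of the same list at 2595, 2012, 1928 and 1211 CPM. All 3 were lower in both Dp(10)2Yey than in both WT libraries and lowest in Dp(10)2Yey replicate 2, the library with the lowest mt-encoded share. Malat1 of the same list was instead highest in that library over all cells, at 27444, 36399, 31632 and 41827 CPM, and the genotypes overlapped. The part of these genes in the mt-encoded share was not tested.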

How the data were processed

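The UMI count matrices deposited by the authors were used. The submitters' processing notes name Cell Ranger 3.0.2 and build mm10. Genes in more than 3 cells and cells with at least 200 genes were kept and clustered in Seurat 5.3.0 (R 4.3.3) with CCA integration, 2000 variable genes and 50 dimensions. Red blood cells (33) were removed after a first pass at resolution 0.8, and clustering was repeated at 0.2. Scrublet in scanpy 1.11.5 called 54 doublets, which were kept. The libraries held 3002546, 6848466, 5112759 and 9612011 UMIs, and the smallest class and library, border macrophage-like in WT replicate 1, held 31704 nuclear UMIs. Because depth differed, counts were summed per library and normalized by TMM in edgeR 4.0.16 with the quasi-likelihood test, with DESeq2 1.42.0 beside it. The edgeR code was tested on simulated data. Tables used Python 3.11.15, numpy 2.4.6, pandas 2.3.3, scipy 1.17.1 and matplotlib 3.10.9. Genes were named by rule: all mt-encoded genes, the 3 with most UMIs per complex, isoform groups, genes past the threshold, the highest and lowest fold change per class, and the 3 largest and smallest class ratios. Members and lists were chosen with earlier results of these data known. Classes were compared as ranges over libraries, without a test.

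The series has 2 mice per genotype, so the exact permutation test cannot reach a p under 0.333, and small differences could be missed. All mice were male and 3 months old. Cells were dissociated, and the parts of cell damage and depth in the mt-encoded shares were not tested and cannot be told apart from class differences here. Class names rest on markers, and choroid plexus-like, ependymal-like and border macrophage-like classes have few cells per library. UMIs measure RNA, not protein or respiration. The symbol rule misses subunits with other names, such as Cyc1, and takes in Cox7a2l and the assembly factors.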

Additional observations from a re-analysis of the deposited data

Results flagged for a closer look

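The nuclear-encoded share did not order the genotypes the same way in every class. Each Dp(10)2Yey value exceeded each WT value in endothelial-like cells, by 0.243 percentage points between means, and in neuron-like cells, by 0.845. Both differences rest mainly on Dp(10)2Yey replicate 1: the values were 2.48, 2.498, 2.95 and 2.51% in endothelial-like and 4.85, 4.798, 6.44 and 4.90% in neuron-like cells, where this library also had the lowest Malat1 (6742 CPM). Without the cells over 20% mt-encoded UMIs, the neuron-like values were 4.25, 4.41, 5.28 and 4.34%, and the genotypes overlapped. In immature neuron-like cells, with all cells kept, each Dp(10)2Yey value was below each WT value, with a difference of −0.102. With all cells kept, each difference gave an exact permutation p of 0.333. Whether the differences between classes are more than sampling was not tested, and with groups of 2 no outlier test is possible.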

How the results depend on the processing

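Of 88 class values of the mt-encoded share under alternatives that keep all 4 libraries, 78 stayed within 1 standard deviation of the libraries. Of the 10 that moved, 8 (of 11 values) came from taking the mean over cells. With only cells of at least 1000 UMIs, 11 of 11 mt-encoded values stayed. Leaving out the shallow microglia-like cluster also kept 11 of 11. For the nuclear-encoded share 86 of 110 stayed, and 9 of 11 moved when it was taken over all UMIs and 6 of 11 as the mean over cells. Leaving out 1 of 4 libraries cannot move a mean by 1 standard deviation, so those values are not counted. The neuron-like mt-encoded mean was 18.5% and became 5.85% without cells over 20% mt-encoded UMIs. Class pairs apart in the mt-encoded share numbered 21 of 45, with a range of 21 to 37 over the leave-one-outs and 37 without Dp(10)2Yey replicate 2. By construction, leaving out a library cannot lower this count. Members called within classes (edgeR quasi-likelihood, adjusted p under 0.01) were 0 of 895, and became 1 with a replicate block, 1 with no filter beyond 1 UMI, and 0 to 32 when single libraries were left out, where the lone sample of a genotype is assumed to vary like the others. Over all cells the count was 0 in every alternative, with 0 at unadjusted p under 0.05 in the edgeR analysis (2.74% of all genes) and 0 by DESeq2. The replicate block was tried because replicate numbers might mark days, and the correlation of the deviations of same-numbered libraries was −0.00126 over 13807 genes. With 2 libraries per genotype the crossed numbers give the opposite value by construction, so this does not show which libraries shared a day, and the numbers were treated as numbers only. For mt-Co3, mt-Atp8, mt-Nd4l and mt-Nd4 the libraries were ordered by replicate number in 10 of 10 classes. Leaving out barcodes over 5% hemoglobin UMIs and the shallow microglia-like cluster were chosen after seeing the data.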

Other observations

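Smaller groups were not compared because a library had fewer than 10 cells. In Cajal-Retzius neuron-like cells (51) the mt-encoded share was 4.63, 4.92, 4.89 and 5.64% and the nuclear-encoded share 4.04, 3.50, 4.07 and 3.88%. Dp(10)2Yey replicate 2 was the highest for the mt-encoded share here, unlike in the 10 compared classes. In differentiating oligodendrocyte-like cells (77) the shares were 3.85, 4.13, 4.81 and 2.89% and 4.11, 4.22, 4.34 and 3.93%.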
